A study of Mus musculus with 18 samples.

Results

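Acp5, Ctsk, Ocstamp, Dcstamp, Atp6v0d2, Calcr, Itgb3, Oscar, Nfatc1 and Slc9b2 are 10 genes of osteoclast fusion and bone resorption, and they were followed here through the zones of cultured mouse tibiae with and without C-type natriuretic peptide (CNP). They were taken by gene symbol: every probe set whose platform annotation gives exactly 1 of these symbols was used, which gave 17 probe sets of 45037 on the array, for 10 of 18193 named genes. Embryonic tibiae (stage E15.5, CD1 strain, both sexes) were kept in minimal medium for 6 days and treated on days 1, 3 and 5 with CNP (1e-06 M), a peptide that stimulates growth of endochondral bones, or with its vehicle, albumin in hydrochloric acid (1 mM as the labels give it). On day 6 each bone was dissected into the resting/proliferating, the hypertrophic and the mineralized zone, and the pieces of about 24 bones were pooled per zone. Each of the 6 groups of zone and treatment had 3 arrays, numbered 2, 3 and 4, and the 3 zones of a culture came from the same bones. Isolated tibiae have no circulation, so only osteoclast lineage cells that the bone already held, or that formed from its own precursors, could be measured.

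Osteoclasts are multinucleated cells of the monocyte-macrophage lineage that dissolve bone and calcified cartilage. RANKL, the product of Tnfsf11, is made by osteoblast lineage cells and hypertrophic chondrocytes, binds RANK on precursors and induces the transcription factor NFATc1, which together with AP-1, PU.1 and MITF turns on the genes of fusion, attachment and acid secretion. In the fetal growth plate, osteoclasts and related cells work at the border where hypertrophic cartilage is replaced by bone.

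Promoter sequences are shown for Ctsk, Slc9b2, Oscar and Acp5, so that the letters bound by these factors can be looked for. Promoters were at hand for 5 of the 10 genes, these and Calcr. Each is the 250 bases before a RefSeq transcript start (build GRCm38.p6), written in the direction of transcription, and capitals mark a match to 1 of 4 short motifs on either strand. The motifs were GGAAA (the core of NFAT sites), GAGGAA (a core bound by PU.1), TGANTCA (AP-1) and CATGTG (the M-box of MITF). GAGGAA followed by A also holds GGAAA.
Ctsk, chr3:95498960-95499209, plus strand: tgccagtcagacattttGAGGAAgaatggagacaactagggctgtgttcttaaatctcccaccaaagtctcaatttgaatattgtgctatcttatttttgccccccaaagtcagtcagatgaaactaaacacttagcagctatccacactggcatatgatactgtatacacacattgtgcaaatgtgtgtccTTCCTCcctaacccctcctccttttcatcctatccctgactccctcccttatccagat
Slc9b2, chr3:135307450-135307699, plus strand: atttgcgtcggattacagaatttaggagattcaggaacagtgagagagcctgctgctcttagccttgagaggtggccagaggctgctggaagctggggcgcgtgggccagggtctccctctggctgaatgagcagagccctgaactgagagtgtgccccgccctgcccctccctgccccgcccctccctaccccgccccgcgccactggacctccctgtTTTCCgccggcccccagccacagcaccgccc
Oscar, chr7:3616158-3616407, minus strand: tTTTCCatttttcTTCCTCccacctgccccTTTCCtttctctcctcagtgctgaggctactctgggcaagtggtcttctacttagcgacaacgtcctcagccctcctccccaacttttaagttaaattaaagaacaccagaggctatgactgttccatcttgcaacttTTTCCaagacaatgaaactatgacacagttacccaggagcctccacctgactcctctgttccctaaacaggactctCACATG
Acp5, chr9:22135747-22135996, minus strand, the first of 3 starts: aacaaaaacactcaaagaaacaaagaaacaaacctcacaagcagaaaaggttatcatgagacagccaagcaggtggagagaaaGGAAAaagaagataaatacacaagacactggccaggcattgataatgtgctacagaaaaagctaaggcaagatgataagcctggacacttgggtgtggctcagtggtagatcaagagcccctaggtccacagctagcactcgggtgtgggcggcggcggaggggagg
Promoters of these 4 genes and of Calcr were read from the RefSeq table, 8 in all, since some genes have several starts. GGAAA was in 6 of these 8 and in 55.6% of all 32851 promoters of that length. GAGGAA was in 2 (23.3% of all), CATGTG in 2 (12.3%) and TGANTCA in 0 (6.75%). Oscar held 3 matches to GGAAA, at 249, 220 and 82 bases before the start, and 1 to CATGTG at 6 bases. Matches this short are a description of the letters in these windows and say nothing of binding.

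Array medians ran from 39.3 to 174.2 as deposited, with CNP hypertrophic replicate 2 the dimmest, and all values below are quantile-normalized linear signals. In all, 4 arrays carry a log of an aborted fluidics run (vehicle replicate 2 of each zone and CNP resting/proliferating replicate 2), and 1 array, replicate 4 of the vehicle resting/proliferating group by its title, is given CNP in its treatment field; the title was used. Actin signal at the 3' end over that at the 5' end, which grows as RNA degrades, was 2.95 ± 0.85 (SD, n = 3) with CNP and 2.28 ± 0.08 with vehicle in the hypertrophic zone (two-sided exact permutation p = 0.1, the smallest that 3 against 3 arrays allow). In the resting/proliferating zone it was 4.06 ± 1.30 and 2.70 ± 0.31 (p = 0.3, exact permutation), and in the mineralized zone 1.76 ± 0.15 and 1.70 ± 0.13 (p = 0.8, exact permutation). Under vehicle the zones did not overlap, at 2.44 to 3.05, 2.20 to 2.36 and 1.59 to 1.84, so this ratio moved with zone alongside the genes, and its part in the zone differences was not tested. The CNP hypertrophic arrays, at 2.39 to 3.93, all lay above the vehicle hypertrophic arrays. The part of this ratio in the CNP differences of that zone was not tested either. Marker sums differed between zones, but each marker set was read in more than 1 zone, and the part of the dissection in this was not tested. Summed signals of 9 cartilage markers were 47600 to 52534 on vehicle hypertrophic and 13411 to 18293 on vehicle mineralized arrays. Those of 5 hypertrophic chondrocyte markers were 27241 to 31144 and 18176 to 20137. Those of 7 osteoblast markers were 3650 to 5662 on vehicle resting/proliferating, 16436 to 22646 on hypertrophic and 24696 to 34012 on mineralized arrays.

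Read by its brightest probe set, each of the 10 genes had its highest mean signal in the mineralized zone, under vehicle and under CNP. The step into that zone was largest for Ocstamp among the 10 under vehicle. Ocstamp, a multipass membrane protein needed for precursors to fuse, read 7.33, 10.6 and 6.46 on the 3 vehicle resting/proliferating arrays, 19.3, 49.8 and 50.6 on the hypertrophic and 595, 993 and 1096 on the mineralized arrays. Its mineralized signals lay far above the other zones, and the hypertrophic above the resting/proliferating signals, without overlap. Ocstamp passed the filter on low signals, which left out the lowest 40% of probe sets by mean, through its mineralized arrays alone, so it was tested with no filter. Within cultures the log2 difference was 4.04 ± 0.27 (SE, 3 cultures) between the mineralized and the hypertrophic zone and 1.16 ± 0.27 between the hypertrophic and the resting/proliferating zone (limma adjusted p = 4.68e-07 and 0.0138). Dcstamp, its partner in cell fusion, read 147, 88.2 and 90.6, then 229, 124 and 238, then 1156, 1475 and 1398 in the same order of zones. The lower zones of Dcstamp overlapped, while the mineralized arrays were 6.56-fold above the hypertrophic (log2 2.71 ± 0.24, adjusted p = 1.2e-06). Since these are bulk samples, more osteoclasts, more RNA of a gene per osteoclast and RNA of the gene in other cells cannot be told apart.

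The acid and enzyme machinery followed the same order at different steepness. Acp5, the tartrate-resistant acid phosphatase by which osteoclasts are stained, read 383, 364 and 278 in vehicle resting/proliferating zones, 1074, 1152 and 1206 in hypertrophic and 6562, 8121 and 7984 in mineralized zones. The 3 zones did not overlap, and each step was past the threshold, 3.27-fold and then 6.5-fold (log2 1.71 ± 0.19 and 2.70 ± 0.19, limma adjusted p = 1.23e-05 and 9.65e-08). Ctsk, the protease that degrades bone collagen, was bright in every zone, with 2004, 1276 and 1748, 3156, 2806 and 2850.0, and 8755, 9238 and 8701. Its steps were smaller, 0.83 ± 0.22 and 1.60 ± 0.22 on the log2 scale (adjusted p = 0.0166 and 8.61e-05), and both held in all 3 cultures. Slc9b2, a sodium-proton exchanger, read 65.9, 46.5 and 36.9, then 136, 122 and 90.1, and 1404, 1956 and 1909.7 in the mineralized zone. It resembled Ocstamp, with a modest first step (1.01 ± 0.24) and a second of 3.75 ± 0.24 (adjusted p = 0.00771 and 4.93e-08).

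Atp6v0d2, the d2 subunit of the vacuolar proton pump, which also takes part in fusion, was read by 2 probe sets that differ in the lower zones. The brighter gave 128, 126 and 115 in resting/proliferating, 139, 119 and 130.1 in hypertrophic and 1897, 1736 and 1783 in mineralized vehicle arrays, so that the lower zones overlapped (log2 0.06 ± 0.22, limma adjusted p = 0.898) and the mineralized zone stood 12.5-fold higher. The other gave 47.1, 50.4 and 58.9, then 201, 165 and 175, then 2263, 2856 and 2409, with a first step past the threshold (1.53 ± 0.21, adjusted p = 0.000106) and a second of 3.68 ± 0.21. Whether Atp6v0d2 was higher in the hypertrophic than in the resting/proliferating zone therefore depended on the probe set.

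Itgb3, the beta subunit of the vitronectin receptor with which osteoclasts attach to bone, had the opposite shape under vehicle, with its larger step between cartilage zones. It read 167, 73.2 and 113 on vehicle resting/proliferating, 1187, 913 and 1211 on hypertrophic and 1736, 2437 and 2247 on mineralized arrays. The first step was 8.66-fold and the second 1.92-fold (log2 3.11 ± 0.22 and 0.94 ± 0.22, limma adjusted p = 1.7e-07 and 0.00519). The second step missed the threshold without replicate 3, without replicate 4 or without vehicle mineralized replicate 3 alone (adjusted p up to 0.0828). Under CNP the steps were close to each other, 1.92 ± 0.22 and 2.17 ± 0.22 (adjusted p = 1.34e-05 and 2.3e-06). Over the 18 arrays its correlation with the mean profile of the other members left by the filter was 0.883, the lowest of the 9. This is a description, since these arrays share cultures and zones. Its second probe set was dim, at 12.4 to 19.9 in the resting/proliferating zone, 127, 123 and 148 in the hypertrophic zone and 72.2, 205 and 151, with hypertrophic signals inside the mineralized range.

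Among receptors, Oscar, an immunoglobulin-like receptor that costimulates osteoclast formation on contact with collagen, read 21.2, 18.1 and 8.81 in vehicle resting/proliferating, 167, 162 and 116 in hypertrophic and 491, 630.3 and 704 in mineralized arrays. Both of its probe sets passed the filter through their mineralized arrays alone and were tested with no filter. The steps were 2.36 ± 0.28 and 1.93 ± 0.28 on the log2 scale (limma adjusted p = 7.49e-05 and 0.000287). The first was the larger, as for Itgb3, but by less. The second probe set of Oscar gave 0.43 ± 0.34 for the first step (adjusted p = 0.517), short of the threshold, and 1.98 ± 0.34 for the second. Calcr, the calcitonin receptor of mature osteoclasts, was dim, at 16.2 to 25.3, 11.1 to 19.8, and 55.1 to 89.7 over the 3 arrays of each zone. It did not pass the filter on low signals, and with all probe sets tested it was higher in the mineralized than in the hypertrophic zone by 1.53 ± 0.27 (adjusted p = 0.00135).

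Nfatc1, the master transcription factor of osteoclast differentiation, differed least between the mineralized zone and the others under vehicle. Its brightest probe set read 379.7, 444 and 367 in vehicle resting/proliferating, 586, 451 and 417 in hypertrophic and 919, 789 and 1022 in mineralized arrays. The lower zones overlapped (0.27 ± 0.17, limma adjusted p = 0.336), and the mineralized zone was 1.86-fold higher (log2 0.89 ± 0.17, adjusted p = 0.0014; 0.0579 without replicate 4). The other 4 probe sets of Nfatc1 did not all follow it. Under vehicle, 3 of them were higher in the mineralized than in the hypertrophic zone (log2 0.70 to 1.36, called with and without the filter), while the fourth missed the threshold there (0.45 ± 0.16, adjusted p = 0.0594) and was lower in the hypertrophic than in the resting/proliferating zone (-0.83 ± 0.16, adjusted p = 0.00211). That probe set had its highest mean signal in the resting/proliferating zone under both treatments, and its mineralized minus resting/proliferating difference was -0.38 ± 0.16 under vehicle and -0.22 ± 0.16 under CNP (adjusted p = 0.0917 and 0.325). Nfatc1 is also expressed outside osteoclasts, as in endothelium.

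**Figure D1:**
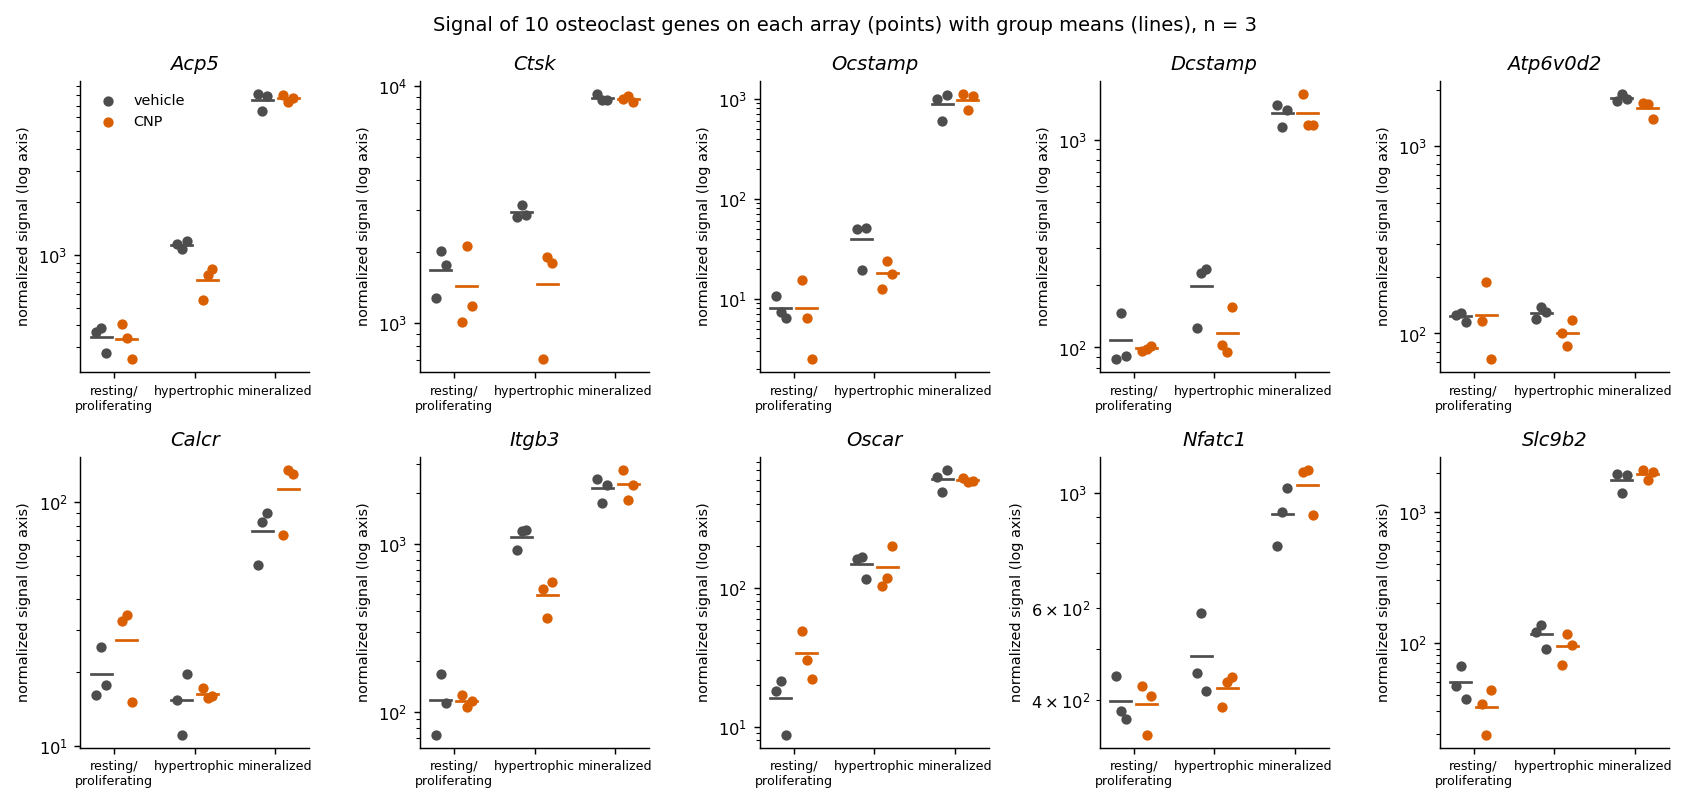
Quantile-normalized signal (log axis, each panel with its own range) of the brightest probe set of each of the 10 genes on all 18 arrays, by zone, with vehicle in grey, CNP in orange, points for arrays and lines for means of 3. Every gene is highest in the mineralized zone, and the CNP points of Itgb3, Acp5, Ctsk and Atp6v0d2 lie below all vehicle points in the hypertrophic zone.

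Each gene's brightest probe set stepped up into the mineralized zone. Because a gene that passes the filter through its mineralized arrays alone had to differ, the count is given with no filter: 10 of 10 genes were higher in the mineralized than in the hypertrophic zone under vehicle, where 7.18% of all 45037 probe sets were higher, and 10 of 10 under CNP, where 9.95% were. The same 10 were higher in the mineralized than in the resting/proliferating zone (9.89% of all probe sets under vehicle and 11.4% under CNP). Markers of other cells stepped up as well. With no filter, 10 of 16 macrophage and leukocyte markers were higher in the mineralized than in the hypertrophic zone under vehicle (median 1.40, against 2.31 for the 10 genes) and 8 of 16 under CNP (median 0.72 against 3.03). Their summed signal was 2783 to 3960 on the vehicle hypertrophic and 10788 to 12108 on the vehicle mineralized arrays. Of 8 endothelial markers 7 were higher under vehicle, and their sum was 639 to 653 and 3676 to 4322. The part of these cells in the zone differences was not tested. Between the cartilage zones the genes split. Under vehicle 7 of the 9 genes left by the filter were higher in the hypertrophic zone (9.85% of 27022 probe sets tested), all but Nfatc1 and Atp6v0d2, with a range of 0.06 to 3.11 (median 1.01, against -0.02 for all tested). Under CNP 4 of 9 were (Acp5, Itgb3, Oscar and Slc9b2, 12.4% of all tested), with a range of -0.21 for Atp6v0d2 to 1.92 for Itgb3. These counts include Ocstamp and Oscar, which passed the filter through mineralized arrays alone. With no filter both kept their calls under vehicle (limma adjusted p = 0.0138 and 7.49e-05). The other probe set of Oscar missed the threshold in that fit (0.43 ± 0.34, limma adjusted p = 0.517). Dcstamp then missed the threshold (0.76 ± 0.24, adjusted p = 0.0636), and Calcr was not called (-0.18 ± 0.27, adjusted p = 0.774). The vehicle count rests on few arrays: without replicate 4 it was 3, and without vehicle hypertrophic replicate 2 or vehicle resting/proliferating replicate 4, the array with the conflicting field, it was 4. Dcstamp missed the threshold in 10 of 26 settings, among them without vehicle resting/proliferating replicate 3 or 4, without vehicle hypertrophic replicate 2 or 4 and without vehicle mineralized replicate 4 (adjusted p up to 0.35). Ctsk missed it without replicate 4, vehicle resting/proliferating replicate 3 or any 1 of the 3 vehicle hypertrophic arrays (up to 0.117). Ocstamp missed it without replicate 3, replicate 4 or vehicle resting/proliferating replicate 4 alone (up to 0.118), and Slc9b2 in the same 3 settings and without vehicle hypertrophic replicate 2 (up to 0.0781), while Itgb3, Oscar and Acp5 kept their calls in all of them.

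**Figure D2:**
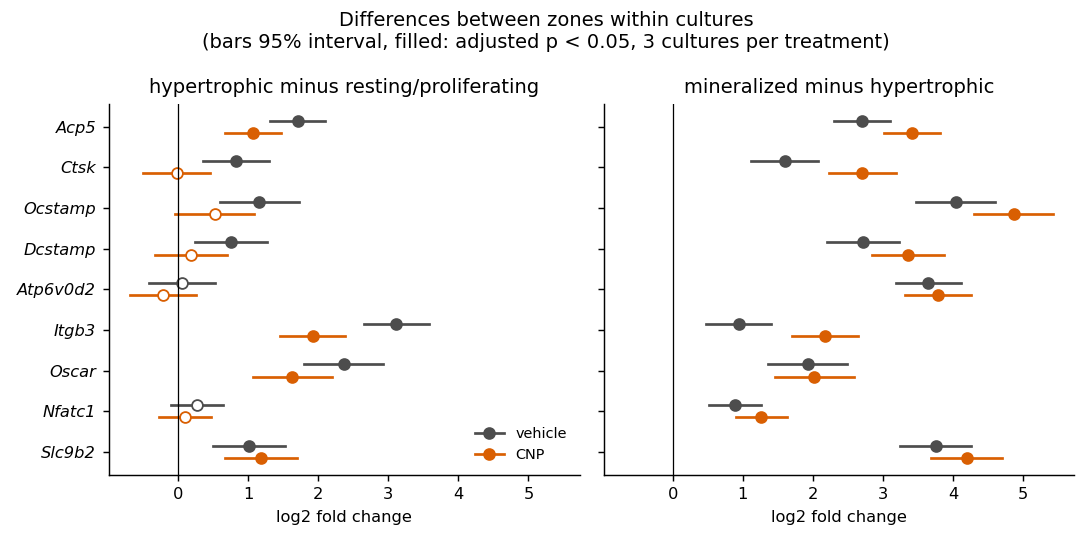
Log2 differences between neighbouring zones within cultures, hypertrophic minus resting/proliferating on the left and mineralized minus hypertrophic on the right, for the 9 genes left by the filter, with vehicle in grey, CNP in orange, bars for 95% intervals and filled points for an adjusted p under 0.05. Itgb3 (3.11 against 0.94) and, by less, Oscar (2.36 against 1.93) take their larger step on the left under vehicle, while Ocstamp, Slc9b2 and Atp6v0d2 take theirs on the right.

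The question for CNP was whether these genes differed from vehicle in each zone. In the hypertrophic zone Itgb3 was lower with CNP and was the member past the threshold. Its signals were 359.8, 535 and 591 on the CNP arrays against 1187, 913 and 1211 on the vehicle arrays. All 3 CNP signals were below all vehicle signals, and the mean difference was 2.22-fold (log2 -1.15 ± 0.24, SE, n = 3 per group, limma adjusted p = 0.0176, 95% interval -1.65 to -0.64). In all, 1 of the 9 genes tested was thus called lower, where 1.1% of all 27022 probe sets were, and 0 were called higher (0.522% of all). The dim probe set of Itgb3 went the same way, with 16.9, 42.5 and 71.6 under CNP against 127, 123 and 148 under vehicle (-1.42 ± 0.33, adjusted p = 0.0515 with no filter). The Itgb3 call was lost without vehicle hypertrophic replicate 2 or 4, without CNP hypertrophic replicate 2 (the dimmest array), without all arrays numbered 2 or 4, without the arrays with an aborted log and without normalization (adjusted p of 0.0633 to 0.219, log2 -0.88 to -1.53). Within the second hybridization day, replicates 2 and 4, it was -1.35 (adjusted p = 0.0434), and the first day holds 1 array per group.

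The resorption enzymes were near the threshold. Acp5 read 771, 554 and 830.5 with CNP and 1074, 1152 and 1206 with vehicle in the hypertrophic zone, groups that did not overlap, a difference of -0.68 ± 0.17 (limma adjusted p = 0.0537). Ctsk read 1899.9, 705 and 1784 with CNP and 3156, 2806 and 2850.0 with vehicle, also without overlap, a difference of -1.12 ± 0.29 (adjusted p = 0.0543). CNP replicate 3 was the lowest array for both, and without it the differences were -0.51 for Acp5 and -0.67 for Ctsk. Within the second hybridization day they were -0.50 and -0.70 (adjusted p = 0.286 and 0.168). With the day as a block both passed (0.0427 and 0.0173). In 4 of 9 genes (Itgb3, Acp5, Ctsk and Atp6v0d2) all CNP arrays lay below all vehicle arrays, as they did for 9.38% of all probe sets tested.

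The fusion genes Ocstamp and Dcstamp read lower on average with overlapping groups. Ocstamp gave 24.1, 12.6 and 17.8 with CNP and 19.3, 49.8 and 50.6 with vehicle in the hypertrophic zone (-0.66 ± 0.29, limma adjusted p = 0.305), and Dcstamp gave 94.9, 102 and 157 and 229, 124 and 238 (-0.65 ± 0.24, adjusted p = 0.211). The brighter probe set of Atp6v0d2 differed by -0.32 ± 0.22 and the other by -0.78 ± 0.23 (adjusted p = 0.557 and 0.104), with all CNP arrays below all vehicle arrays in both. Slc9b2 differed by -0.27 ± 0.23, Nfatc1 by -0.18 ± 0.16 and Oscar by -0.11 ± 0.25, with adjusted p-values of 0.662 to 0.899. The other 4 probe sets of Nfatc1 lay between 0.04 and 0.30, opposite in sign to the brightest. Oscar also turned above 0, up to 0.13, without replicate 2, without replicate 3, without CNP hypertrophic replicate 3 and with the fluidics run as a block. Calcr, tested with no filter, differed by 0.05 ± 0.26. Of the 9 genes tested 9 were below 0, with a median of -0.65 (-0.49 over 10 with Calcr), against a median of -0.01 and 51.4% below 0 over all probe sets tested. These genes share their arrays and vary together, so the count is not that many separate observations.

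**Figure D3:**
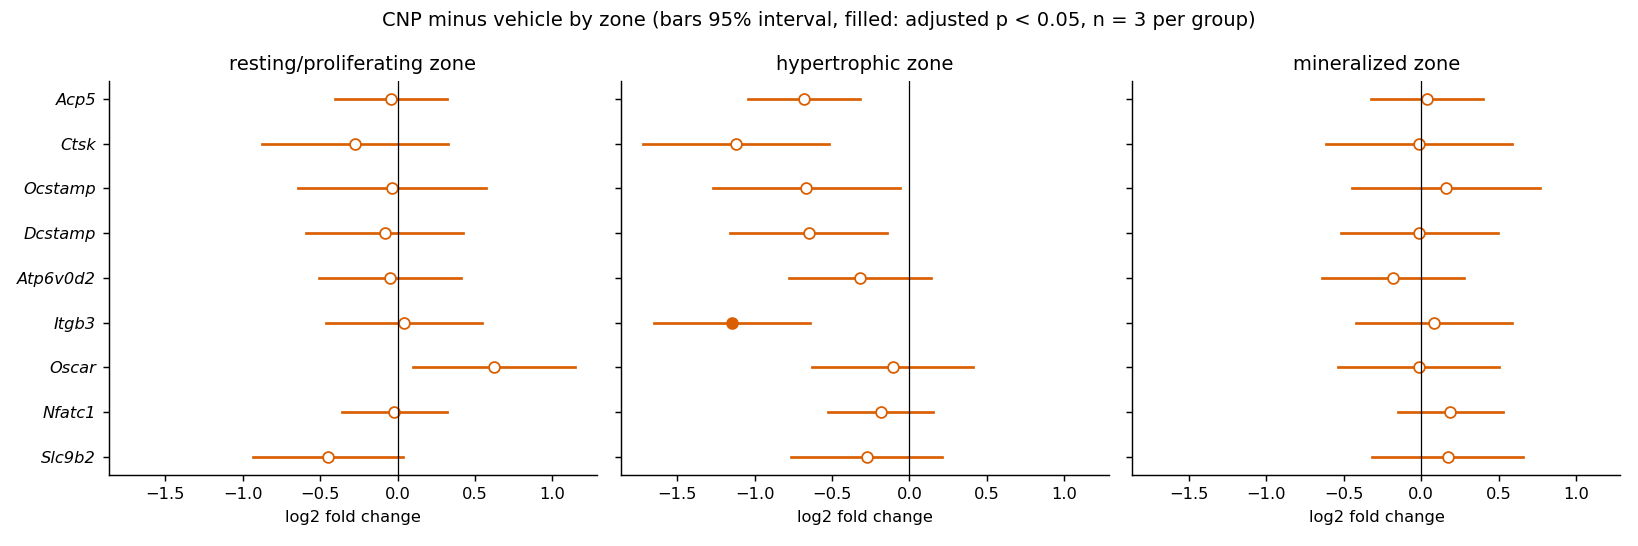
Log2 difference of CNP minus vehicle in the resting/proliferating, hypertrophic and mineralized zone for the 9 genes left by the filter, with bars for 95% intervals, n = 3 arrays per group and filled points for an adjusted p under 0.05. In the hypertrophic zone the 9 points lie below 0 and Itgb3 (-1.15) is filled, while in the mineralized zone they lie between -0.18 and 0.19.

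In the mineralized zone, where the genes were brightest, 0 of 9 members passed (0.0037% of all probe sets did; limma) and 0 had an unadjusted p under 0.05 (1.8% of all higher and 1.56% lower), with differences from -0.18 ± 0.22 for Atp6v0d2 to 0.19 ± 0.16 for Nfatc1 and a median of 0.04. Acp5 there read 7346, 8093 and 7756 with CNP and 6562, 8121 and 7984 with vehicle, fully overlapping (0.04 ± 0.17, 95% interval -0.32 to 0.40). For Itgb3, with 1832, 2748 and 2239 against 1736, 2437 and 2247, the interval was -0.42 to 0.59, which leaves out a fall of the size seen in the hypertrophic zone.

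In the resting/proliferating zone 0 of 9 members passed either (limma; 0.0259% of all probe sets did). The differences ran from -0.45 ± 0.23 for Slc9b2 to 0.62 ± 0.25 for Oscar, with a median of -0.04. Oscar read 30.3, 48.8 and 22.2 with CNP and 21.2, 18.1 and 8.81 with vehicle, low signals that did not overlap, as 7.41% of all probe sets did in that direction. It was the member with an unadjusted p under 0.05, where 5.87% of all were higher at that level (limma adjusted p = 0.32). Its other probe set differed by -0.18 ± 0.34. Averaged over the 3 zones of each culture, 0 of 9 passed (limma; 0.0148% of all), Acp5, Ctsk and Itgb3 were lower at an unadjusted p under 0.05 (6.21% of all), and the estimates ran from -0.47 ± 0.17 for Ctsk (adjusted p = 0.346) to 0.17 ± 0.13 for Oscar.

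Whether CNP acted differently by zone was tested within cultures. The Itgb3 response was lower in the hypertrophic than in the resting/proliferating zone by 1.19 ± 0.31 on the log2 scale, and the mineralized minus hypertrophic difference was 1.23 ± 0.31, but neither passed over all probe sets (limma adjusted p = 0.18 and 0.21). In both comparisons 0 of 9 members passed (limma; 0.167% and 0.0666% of all did). At an unadjusted p under 0.05, 3 of the 9 were lower in the first (5.48% of all) and 4 higher in the second (4.03% of all). The first difference ran from Itgb3 up to 0.17 ± 0.34 for Slc9b2, with a median of -0.63. The second ran from 0.09 ± 0.37 for Oscar up to Itgb3, with a median of 0.64, and Ctsk had 1.11 ± 0.31.

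Other genes of the osteoclast pathway were read from a list outside the 10. With no filter, 19 of 29 were higher and 1 lower in the mineralized than in the hypertrophic zone under vehicle (7.18% and 6.89% of all probe sets), with a median of 1.24. The largest were Snx10, a sorting nexin needed for the ruffled border (3.26 ± 0.17), Tyrobp, the adaptor DAP12 (3.25 ± 0.25), Csf1r, the M-CSF receptor (2.72 ± 0.21), and Ckb, brain-type creatine kinase (2.54 ± 0.15). With CNP in the hypertrophic zone 0 of the 28 left by the filter were called higher (0.522% of all probe sets tested) and 1 lower (1.1%). Of the 28, 18 were below 0, with a median of -0.07 against -0.65 for the 9 of the 10 genes that were tested. The gene called lower was Mmp9, the gelatinase of osteoclasts and their precursors (-1.17 ± 0.26, limma adjusted p = 0.0251). The Mmp9 call was lost in 11 of 31 settings, among them without vehicle hypertrophic replicate 2 or 4 and without CNP hypertrophic replicate 2 or 3 (adjusted p up to 0.181, log2 -0.94 to -1.51 over all settings). Mmp9 shared with Itgb3 a large step between the cartilage zones under vehicle (3.71 ± 0.21).

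Of 7 signals to osteoclasts, Tnfsf11 (RANKL) and Cxcl12, a chemokine for precursors, fell with CNP in the hypertrophic zone and 5 did not pass. Tnfsf11 ranged from 408 to 679 on the CNP arrays and from 1565 to 2102 on the vehicle arrays, without overlap (-1.72 ± 0.23, limma adjusted p = 0.000674). In the mineralized zone it differed by -0.15 ± 0.23. Its response was lower in the hypertrophic than in the resting/proliferating zone past the threshold (-2.08 ± 0.35, adjusted p = 0.0269), which none of the 10 genes reached. Cxcl12 differed by -0.94 ± 0.22 (adjusted p = 0.0334). The Tnfsf11 fall in the hypertrophic zone kept its call in all 31 settings tried (adjusted p up to 0.0381). Its zone difference lost the call in 12 of 26 settings, among them without any 1 of the 3 vehicle hypertrophic arrays, CNP hypertrophic replicate 2 or 3, vehicle resting/proliferating replicate 2 or 3 or CNP resting/proliferating replicate 2 (adjusted p up to 0.312). The Cxcl12 call was lost in 12 of 31, among them without any 1 of the vehicle hypertrophic arrays or CNP hypertrophic replicate 3 (-0.66 without the last, adjusted p up to 0.237).

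Markers of other cells were read on the same arrays. In the hypertrophic zone the summed signal of the 10 genes was 2584 to 4251 with CNP and 5914 to 6704 with vehicle, without overlap. That of 16 macrophage and leukocyte markers was 2289 to 3665 and 2783 to 3960, overlapping. Of the 11 of them tested, Cd68 fell (-1.07 ± 0.26, limma adjusted p = 0.0428, lost in 21 of 31 settings, among them without CNP hypertrophic replicate 2 or 3 or any 1 of the vehicle hypertrophic arrays, with values up to 0.358), 10 did not pass, and the median was 0.16. Cd68 is also a lysosomal protein of osteoclasts. The 7 osteoblast markers summed to 11852 to 16806 with CNP and 16436 to 22646 with vehicle, 0 of 7 passed, 7 of 7 were below 0 and their median was -0.68, with Dmp1 at -1.12 ± 0.49 and Phex at -0.90 ± 0.24. The osteoblast median lay close to the -0.65 of the 9 tested genes (-0.49 over 10 with Calcr), and the part of these cells in the difference was not tested. Of 5 endothelial markers 0 passed (median -0.10), and the list summed to 644 to 660 with CNP and 639 to 653 with vehicle. Of 3 platelet markers, which share Itgb3 with osteoclasts, 0 passed, the largest differences being 0.69 ± 0.35 for Pf4 and -0.15 ± 0.18 for Gp1bb.

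**Figure D4:**
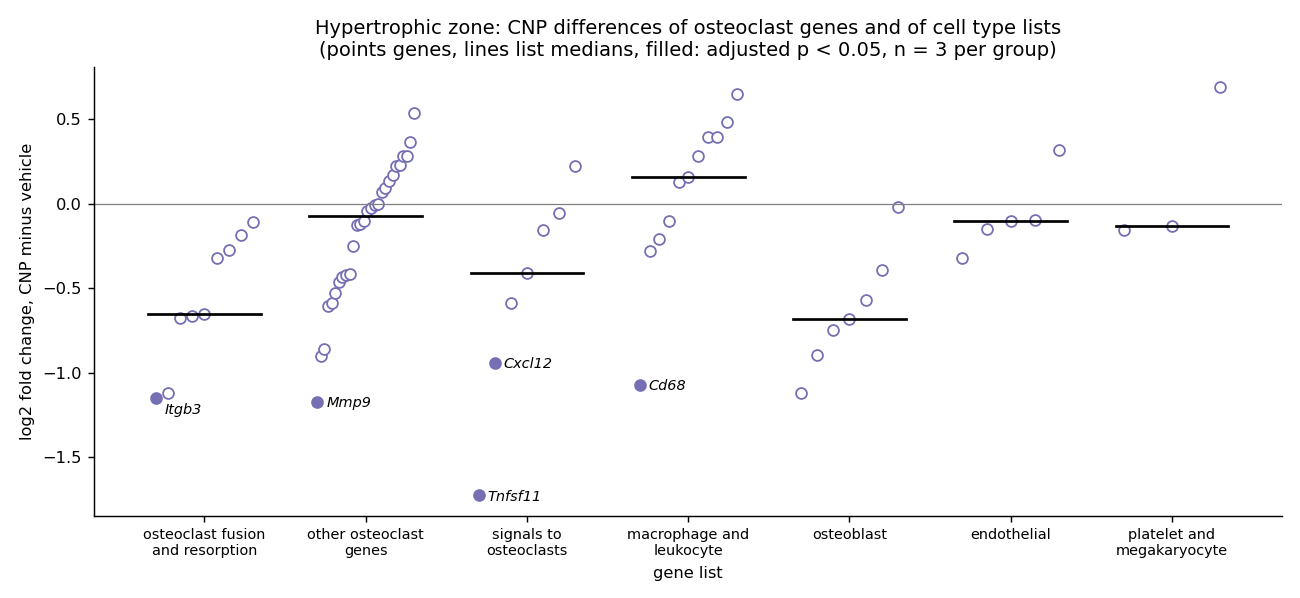
Log2 difference of CNP minus vehicle in the hypertrophic zone (n = 3 arrays per group) for each gene tested in 7 lists, with black lines for list medians and filled, named points for an adjusted p under 0.05. The lists of osteoclast fusion and resorption (median -0.65) and of osteoblasts (-0.68) lie lowest, and macrophage and leukocyte markers have a median of 0.16.

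Outside the 10, the genes whose log2 signals over the 18 arrays were most like the mean profile of the 9 members left by the filter were S1pr3, a sphingosine-1-phosphate receptor (Pearson r = 0.994), Slc37a2, a sugar-phosphate exchanger (0.993), Tcirg1, the osteoclast proton pump subunit a3 (0.990), Tnc, the matrix protein tenascin-C (0.990), and Ckb (0.989), of 13238 genes compared. These r values describe the pattern that the arrays share, by zone and by treatment. The 18 arrays include the hypertrophic CNP and vehicle arrays, where the 9 members read lower on average with CNP. A lower signal with CNP there is therefore partly built into the choice of these genes. Their differences and adjusted p-values in that zone are a description and not a separate test. With CNP in the hypertrophic zone Tnc differed by -0.93 ± 0.19 (limma adjusted p = 0.0161), S1pr3 by -0.59 ± 0.18, Ckb by -0.59 ± 0.15, Tcirg1 by -0.53 ± 0.16 and Slc37a2 by -0.31 ± 0.21, the last 4 short of the threshold (adjusted p of 0.0574 to 0.546). The Tnc call was lost in 11 of 31 settings, among them without vehicle hypertrophic replicate 2 or 4 or CNP hypertrophic replicate 3 (adjusted p up to 0.208).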

How the data were processed

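The deposited table holds the authors' linear signal intensity for each probe set of 18 Affymetrix MOE430_2 arrays, from 0 to 20519, not scaled between arrays. Per the series' design text the submitters used GeneSpring 7.2; how probe-set values were made is not stated in the labels or files. After 64 control probe sets were left out, intensities were quantile-normalized and taken as log2(signal + 16), so fold changes of dim genes are understated. The lowest 40% by mean log2 value (signal under about 63.5) were left out, and 27022 probe sets were tested with limma 3.58.1 in R 4.3.3 (lmFit, eBayes with trend, two-sided, Benjamini-Hochberg, call at an adjusted p under 0.05). CNP was compared with vehicle in 1 fit of all arrays, its average over zones on 6 culture means, and zones and response differences with the culture as a block. The number of arrays limits the precision.

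A gene was read by the brightest probe set that names it alone, and its other probe sets are given where they differ. Groups came from titles; the series' design text calls the cultures independent trials. Arrays of the same number deviated together over probe sets in the resting/proliferating zone (r = 0.187, 0.378 and 0.154 for CNP and vehicle arrays 2, 3 and 4) and in culture means (0.173, 0.337 and 0.213). Each number also shares a hybridization day, so these values do not settle whether the numbers pair the cultures. With the number as a block no member's call changed in either. The 10 genes, the other lists and the tests were chosen with earlier results of these data known. Steps into the mineralized zone were counted with no filter, and the zone steps given for Ocstamp and Oscar are from the same fit, since these passed the filter through mineralized arrays alone. Of each other list up to 4 called genes with the largest change were named, or 2 if none was called, as were the 5 genes most like the members' mean profile. Some genes of the lists, among them Nfkb1, Siglec15, Tm4sf19, Bglap, Spp1, Runx2 and Gp1ba, were not analysed here. On simulated data the fit for CNP in the hypertrophic zone recovered 56% of probe sets changed by 1 on the log2 scale and 93% of those changed by 2. The simulated noise was normal and independent between probe sets, with no hybridization batch or RNA quality difference. These shares are therefore not rates for the real arrays. Alternatives were median centring, no normalization, a pseudocount of 1, no filter, arrays and replicate numbers left out, and hybridization day, fluidics run or replicate number as a block. For CNP against vehicle, leaving out replicate 3 and keeping only the second hybridization day use the same arrays. Counts of settings there include this fit 2 times.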

Additional observations from a re-analysis of the deposited data

How the results depend on the processing

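The direction and the calls of the mineralized zone against the other zones held for Acp5, Ctsk, Ocstamp, Dcstamp, Atp6v0d2, Oscar and Slc9b2 in every setting that tested them (with a pseudocount of 1 the filter left Ocstamp out); Itgb3 missed the threshold for mineralized against hypertrophic under vehicle in 3 settings and Nfatc1 in 1. The count of genes called with CNP in the hypertrophic zone, 1 with all arrays, was 0 to 3 over the settings that leave out arrays or a replicate number. It was 0 without normalization, 0 without the 4 arrays with an aborted log and, with a block for hybridization day, 3. Without vehicle hypertrophic replicate 2 or 4, or without all arrays numbered 2 or 4, it was 0; without CNP resting/proliferating replicate 3 or CNP hypertrophic replicate 4 it was 3. The Itgb3 difference ranged from -1.35 to -0.88 over the arrays and replicate numbers left out and was -1.53 without normalization. Acp5 passed in 5 settings and Ctsk in 6 (lowest adjusted p = 0.0341 and 0.0163). The count for hypertrophic against resting/proliferating was 3 to 7 under vehicle over the arrays left out, and 2 under CNP without normalization. Signs that turned were all of differences short of the threshold: Nfatc1 for CNP in the mineralized zone (-0.24 without normalization), the Oscar average (-0.086 without normalization), Oscar for CNP in the hypertrophic zone (-0.52 to 0.13 over arrays left out, 0.13 within the second hybridization day, 0.097 with the fluidics run as a block), the Oscar difference of mineralized minus hypertrophic response (-0.21 to 0.62 over arrays left out, -0.14 without aborted arrays), the Slc9b2 difference of hypertrophic minus resting/proliferating response (-0.24 to 0.46, -0.30 without normalization, -0.13 without aborted arrays) and Atp6v0d2 for hypertrophic against resting/proliferating under CNP (-0.61 to 0.19, 0.12 without aborted arrays). The causes were not tested. In the hypertrophic zone 141 probe sets were called higher and 297 lower with CNP; without normalization, which puts the median of all at -0.35, these were 9 and 85. The replicate block gave 2 called genes in the hypertrophic zone, Itgb3 and Ctsk, and 0 in the resting/proliferating zone, in the mineralized zone and on average. It changed no other call. In the hypertrophic zone arrays of the same number deviated together little (r from -0.018 to 0.123). The zones share bones, so this does not settle whether the cultures are paired. Leaving the arrays with an aborted log out of the average over zones was not run, because vehicle culture 2 then has no array. Where an arm is left with 2 arrays, the fit pools the spread of all groups. No detection calls were used, so the lowest signals, as for Ocstamp and Calcr in cartilage, carry little information on differences.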
